A study of Xenopus laevis with 6 samples.

Results

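The gastrula and oocyte zinc finger genes of Xenopus laevis were taken as all genes whose product name in the deposited log2 CPM table contains "gastrula zinc finger protein" or "oocyte zinc finger protein", in upper or lower case. This gave 178 of the 24661 genes of that table, out of 42638 in the count table, and 176 of them match in lower case alone. Of the 178 genes, 107 carry an oocyte name and 71 a gastrula name. RNA was sequenced from whole wild-type embryos at stage 35, after 7 days at 14 °C. All embryos were fertilized in 0.1X MMR (Marc's Modified Ringer's, a salt solution in which frog embryos are reared), and a subset was moved to 0.75X MMR at stage 9, so that the media differ only from that stage on. There were 3 samples in 0.1X MMR and 3 in 0.75X MMR, each a pool of 10 embryos, so that no value belongs to a single embryo. The methods describe replicates in general as coming from independent batches, while the labels do not tie the pools of these media to clutches or batches, so that p values measure the spread between these pools.

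Zinc finger proteins of this type carry tandem repeats of a short fold in which cysteines and histidines hold a zinc ion, and most members of the class bind DNA. The names XlCOF and XlCGF go back to cDNA clones that were isolated from oocytes and gastrulae of Xenopus laevis, and such genes form a family that has multiplied in amphibians. A name given after the stage of a clone library does not say when the gene is used, and RefSeq gives most names by likeness to such a clone, with the ending "-like". The ending stood in the product of 157 of the 178 genes. The function of single members is largely unknown, so that they are described here by name group and by position. Xenopus laevis is allotetraploid and carries an L and an S subgenome.

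Expected counts, which RSEM estimates for each gene, added up to between 5024957 and 7045215 per sample. Values are given as CPM, the share of a sample's total that a gene takes, on the usual scale. CPM is a share of reads and was not divided by transcript length, which the gene table used here does not hold, so that an order of members by CPM is an order of read shares and not of transcript numbers. The floor of 3 counts stood at 0.426 to 0.597 CPM, depending on the sample, and covers counting error only. The summed lists of muscle, neural, epidermis, lens and blood markers were above 0 in every pool, with 5750 to 8824 CPM for the 7 genes of the muscle list and 27.3 to 51.8 for the 6 of the blood list, the lowest of the 5 lists. Of the blood markers, hba1.L, hba1.S and hbg1.L had 0 counts in 1 pool each. In bulk samples fewer cells of a type and less RNA per cell cannot be told apart. No sequence of the members was at hand, so that likeness between them was not measured here.

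All 178 members have an entry in the RefSeq gene table of genome version 10.1, and all are protein-coding. They lay on 14 chromosomes, 107 of them on L and 71 on S chromosomes. Of all members, 151, or 84.8%, lay on chromosomes 6L, 6S, 9_10L and 9_10S, where 21.4% of all genes of the log2 CPM table and 38.7% of the other 302 genes with "zinc finger protein" in the product lay. When members whose starts were at most 2 Mb from the last one were joined, 17 clusters resulted, 8 of them with a single member. The 4 largest held 149 members, or 83.7%.

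The largest cluster held 48 members between positions 232551 and 5138400 of chromosome 6L, starting 0.194 Mb from the first annotated gene of the chromosome. On chromosome 6S, 30 members lay between 1205584 and 2787584, starting 1.20 Mb from the first annotated gene. Chromosome 9_10L held 40 members between 133214387 and 135180522, and the cluster ended 2.61 Mb before the last annotated gene. Chromosome 9_10S held 31 members between 113796059 and 115087093, ending 2.14 Mb before the last annotated gene. All of these clusters lay near one end of the annotated chromosome. The same was true of a cluster of 9 members on chromosome 5L (169891483 to 171376559), which ended 0.016 Mb before the last gene, and of 3 members on 5S (142715010 to 143333504), which ended 0.060 Mb before it. Median distances between the starts of successive members were 41.2 kb on 6L, 31.5 kb on 6S, 23.1 kb on 9_10L and 30.3 kb on 9_10S.

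Members were interleaved with other genes. Of the protein-coding genes of the log2 CPM table in each interval, they made up 45.3% on 6L, 48.4% on 6S, 35.4% on 9_10L and 53.4% on 9_10S. A further 46 protein-coding genes with "zinc finger protein" in the product lay in these 4 intervals. The interval on 6L held 169 protein-coding genes in RefSeq, of which 106 were in the log2 CPM table and 5 had no count in any sample. Genes outside that table have no product name here, so that members of the family with fewer reads were not analysed here.

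Name groups followed the chromosomes. Of the 42 genes named after XlCOF7.1, the largest of 25 groups, 34 lay on 9_10L and 9_10S and 0 on 6L and 6S. Of the 11 named after XlCOF22, 8 lay on 9_10L and 9_10S, as did 7 of the 8 named after XlCOF8.4, with 0 of both on 6L and 6S. The reverse held for XlCOF6, with 25 of 28 genes on 6L and 6S, for XlCGF57.1, with 22 of 25, and for XlCGF26.1, with 14 of 20. In the 4 large clusters, oocyte names made up 33 of 40 members on 9_10L and 24 of 31 on 9_10S. They made up 21 of 48 on 6L and 9 of 30 on 6S. Both subgenomes thus carried the same split between the chromosome pairs, which is a description, since names are given by likeness in sequence. The genes XB5772961.L and xlcgf66.1.L bear the suffix of the L subgenome and lie on chromosome 9_10S in the table.

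**Figure D1:**
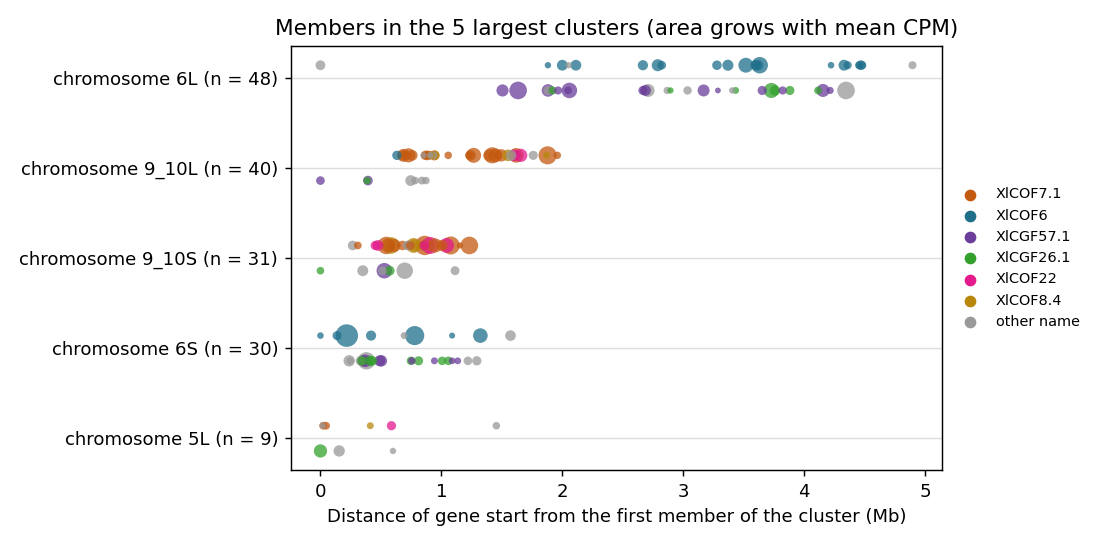
Position of the members in the 5 largest clusters, as the distance of a gene's start from the first member of its cluster in Mb (x axis), with 1 row per cluster, oocyte names above the line and gastrula names below it, colour for the name group and area growing with the mean CPM. XlCOF7.1, XlCOF22 and XlCOF8.4 lie mostly in the rows of 9_10L and 9_10S. XlCOF6, XlCGF57.1 and XlCGF26.1 lie mostly in those of 6L and 6S. These rows also hold members of other names.

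Such arrays bear on the counts themselves. A read that fits more than one copy is divided by RSEM and leaves values that are not whole numbers. Of the members' values above 0, 68.1% were not whole, against 45.9% over all tested genes and 50.4% over the other zinc finger genes. The share was 72.0% in the 149 members of the 4 large clusters and 47.7% in the 29 members outside them, with 81.7% on 9_10S and 87.0% on 5L as the highest of the clusters with over 3 members. In 34 members all values were whole, and in 82 none was. In addition, 51 members overlap at least 1 other member by their annotated span, many of them through a few long genes such as XB5772961.L, which reaches from 114493270 to 115072804. The library kit keeps strand, but whether the counting used it is not given in the sources used here. Values of single members are therefore uncertain where copies or spans share reads. A sum over a cluster is not changed by reads divided among its own members. Reads shared with genes outside the sum would alter it, and how many there are was not measured.

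The members took low read shares at stage 35. The median of their mean CPM over 6 pools was 7.22, with quartiles at 4.30 and 13.01. The median over the log2 CPM table was 15.3 CPM, and that of the other 302 zinc finger genes was 16.02 CPM. The member with the most reads stood at 50.02 CPM, and 4467 genes of the table lay above it. Between the 10th and the 90th percentile the members differed 7.63-fold, against 27.3-fold over the table and 16.7-fold over the other zinc finger genes. From the lowest to the highest member the difference was 35.4-fold. The lower end is set by the table, whose genes had a third-highest CPM of at least 1.70, and 0 members reached this level in the pools of 1 medium only. Oocyte names had a median of 7.91 CPM and gastrula names one of 6.50 CPM, with quartiles at 4.66 and 14.4 and at 4.10 and 11.3, which overlap widely. Reads were spread over many members, since 39 of them were needed for 50% of the members' counts and the top 10 held 18.4%.

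**Figure D2:**
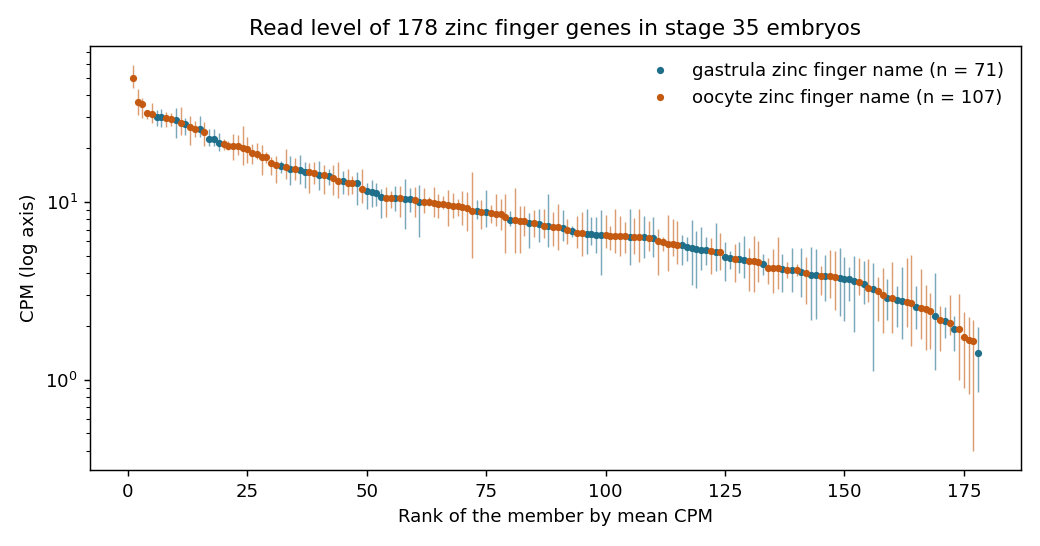
Mean CPM over 6 pools of each of the 178 members (points, log axis) against its rank, with the lowest and highest pool as a line and colour for oocyte and gastrula names. Levels fell from 50.02 to 1.41 CPM, with a step from the first member to the second at 36.7 CPM. Oocyte names ran from 50.02 to 1.66 CPM and gastrula names from 29.9 to 1.41 CPM.

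LOC108719642 on chromosome 6S (1423281 to 1437865), named after XlCOF6, took the most reads of all members. It had 52.2, 50.3 and 44.8 CPM in 0.1X MMR and 50.3, 43.8 and 58.8 CPM in 0.75X MMR. Its lowest pool lay above the highest pool of the member ranked next, so that its place was held in every pool. That next member was LOC108704255 on 9_10S, named after XlCOF7.1, with 30.96, 43.01 and 36.7 CPM in 0.1X MMR and 35.3, 35.6 and 38.5 CPM in 0.75X MMR. LOC108695511 on 6S, another XlCOF6 gene, had 29.7, 34.7 and 37.2 CPM in 0.1X MMR and 36.9, 36.6 and 38.5 CPM in 0.75X MMR. The ranges of these last 2 overlap, and their order was not fixed.

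The next members stood close together. LOC108703835 on 9_10L, LOC108704196 and LOC108704241 on 9_10S, all named after XlCOF7.1, had mean levels of 31.6, 31.3 and 29.8 CPM. The gastrula names with the most reads were LOC108719518 on 6L, an XlCGF58.1 gene with a mean of 29.9 CPM, and LOC108704623 on 6L, an XlCGF57.1 gene with a mean of 29.9 CPM. LOC108704623 had 211, 199 and 150 counts in 0.1X MMR against 158, 189 and 166 counts in 0.75X MMR, all of them whole numbers. Neighbours in this stretch did not differ beyond their spread over pools.

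At the other end stood LOC108718440 on 6L, named after XlCGF57.1, with 13.8, 5.41 and 9.13 counts in 0.1X MMR against 5.12, 11.2 and 6 counts in 0.75X MMR, a mean of 1.41 CPM. LOC108704963 on 7S, named after XlCOF26 and without a neighbour of the family, had 15, 6 and 2 counts in 0.1X MMR against 13, 12 and 13 counts in 0.75X MMR. It was the 1 member with a sample under the floor of 3 counts. LOC108703779, named after XlCOF6.1, had a mean of 1.66 CPM and LOC108695504, named after XlCOF6, one of 1.74 CPM. The media overlapped in all 4 of these genes.

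Genes with a symbol of their own allowed L and S copies to be set side by side. XB22065617.L on 6L, named after XlCOF28, had 30, 22 and 22 counts in 0.1X MMR against 27, 34 and 30 in 0.75X MMR. XB22065617.S on 6S had 67, 58 and 59 counts in 0.1X MMR against 68, 49 and 44 in 0.75X MMR, so that the S copy had more counts than the L copy in each of the 6 pools. All of these counts were whole. XB22169530.L on 5L, named after XlCOF6.1, had a mean of 3.83 CPM and its S copy on 5S one of 6.40 CPM, and the S copy was again the higher in each pool. XB5772961.L, an XlCGF53.1 gene, had a mean of 25.6 CPM and xlcgf66.1.L, an XlCGF66.1 gene, one of 6.24 CPM.

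Lists of genes with known roles give a scale for these levels. Of 52 genes on a list of maternal and oocyte genes, 26 passed the filter, with a median of 6.61 CPM, and eef1a1o.S had the most reads with 55.2 CPM. Of 66 genes on a list of gastrula genes, 41 passed, with a median of 4.94 CPM, led by grhl1.S with 73.5 CPM. A list of cofactors through which zinc finger repressors and chromatin act in vertebrates also held bcl6, zbtb16 and zbtb17, which carry zinc fingers themselves. It had a median of 51.1 CPM over 56 of 57 genes, led by chd4.L, a nucleosome remodeller, with 536 CPM. A list of regulators with zinc fingers held 91 genes of 49 symbols, with L and S copies counted apart. They had a median of 17.4 CPM over 87 of the 91 genes, led by sp1.L with 159.8 CPM. The median member, at 7.22 CPM, lay above the medians of the first 2 lists and below those of the cofactor and regulator lists. The limits were unlike, since list genes needed over 0.6 CPM in at least 3 samples and members had a third-highest CPM of at least 1.70. Tested list genes such as nanos1.L, with 0.634 CPM, fall under the members' limit, so that no likeness to a list is drawn. These values are also read shares across genes of different length.

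Spread between pools of the same medium was of the order of counting error in the members. The coefficient of variation between pools of one medium is the SD within a medium, pooled over both media, divided by the mean CPM. It had a median of 15.4% over the members, and the counting error expected at their counts had a median of 15.2%. Each such spread rests on 4 degrees of freedom, and the median of such estimates lies below the spread they estimate. A median near that of counting error therefore does not mean that only counting acted. The variance between pools divided by that of counting had a median of 1.11, against 1.34 over all tested genes, which have more counts. Since such ratios grow with the count, members were set beside other tested genes of the same class of mean count. At a mean count of 100 to 400, the median ratio was 1.11 in 29 members and 1.48 in 8537 other genes. At 50 to 100 it was 1.24 in 49 members and 1.19 in 4768 others, at 25 to 50 it was 1.09 in 59 members and 1.12 in 3919 others, and at 5 to 25 it was 1.28 in 41 members and 1.08 in 6378 others. Members thus lay below the others at 100 to 400 and at 25 to 50, and above them at 50 to 100 and at 5 to 25. Counts were not matched within a class. Median counting error was 8.09% in members and 7.38% in others at 100 to 400, and 23.7% and 28.5% at 5 to 25. The biological coefficient of variation that edgeR estimates had a median of 9.95% over the members and 9.33% over all tested genes. Those genes have more counts. By the same classes of mean count, given as a fraction, its median was 0.0733 in members and 0.0764 in others at 100 to 400. It was 0.0924 and 0.0903 at 50 to 100, 0.106 and 0.109 at 25 to 50, and 0.135 and 0.161 at 5 to 25. Members thus lay below the others in every class but that of 50 to 100, again without matching of counts within a class.

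**Figure D3:**
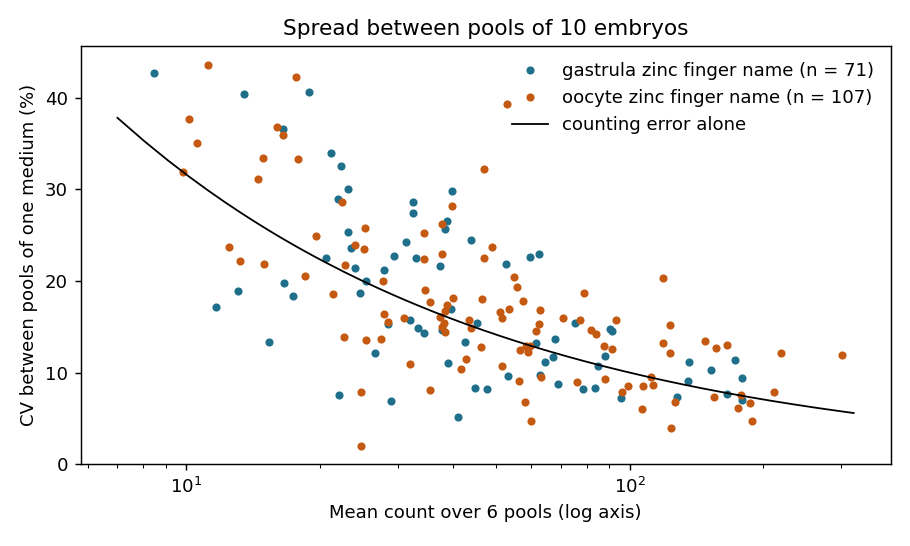
Coefficient of variation between pools of one medium, in percent, against the mean count over 6 pools (log axis) for 178 members, with the line that counting error alone gives. Points lie on both sides of the line, and 77 members fall below it. With 4 degrees of freedom per gene, a point below the line does not mean less spread than counting gives.

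A ratio over 2 was found in 39 members and a ratio over 3 in 11. The share of other genes with such ratios was not taken, so that these counts do not set the members apart. Values divided by RSEM were taken as counts in the ratio. The widest spread among the 78 members with a mean count of 50 or more was that of LOC108703752 on 9_10L (133893825 to 133898946), named after XlCOF7.1. It had 57, 52 and 44 counts in 0.1X MMR against 29, 83 and 53 counts in 0.75X MMR, or 8.09, 8.40 and 8.76 CPM against 4.83, 14.7 and 8.80 CPM. Its pools in 0.1X MMR were close together, and those in 0.75X MMR lay on both sides of them. The coefficient of variation was 39.3%, and all counts were whole.

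LOC108703847 on 9_10L and LOC108705735 on 9_10S, which share the name XlCGF28.1 and are the only members that do, followed it. LOC108703847 had 9.51, 10.1 and 11.2 CPM in 0.1X MMR and 10.3, 6.35 and 12.4 CPM in 0.75X MMR. LOC108705735 had 9.88, 10.8 and 9.31 CPM in 0.1X MMR and 13.5, 7.09 and 11.5 CPM in 0.75X MMR. In both genes the second sample of 0.75X MMR was the lowest of all pools. None of their values was whole, and whether reads shared between the copies make them move together was not tested.

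LOC108705889 on 9_10L had 16.2, 19.4 and 26.9 CPM in 0.1X MMR and 19.2, 17.8 and 21.3 CPM in 0.75X MMR, with 1 high pool. LOC108695539 on 6S had a coefficient of variation of 21.9% and LOC108719513 on 6L one of 20.4%. The narrowest spread was that of LOC108704244 on 9_10S, named after XlCOF22, at 3.93%, with 19.7, 20.1 and 20.2 CPM in 0.1X MMR and 22.0, 20.1 and 22.1 CPM in 0.75X MMR. LOC108703835 followed with 4.73% and LOC108704248 with 4.76%. All 3 lay below the spread of counting alone, at 8.98%, 7.28% and 12.9%.

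Summed over all members, the family took 1658, 1854 and 1829 CPM in 0.1X MMR and 1794, 1804 and 1917 CPM in 0.75X MMR. The first sample of 0.1X MMR was the lowest and the third of 0.75X MMR the highest. The 95% Wilson interval of the lowest value was 1629 to 1689 CPM and that of the next lowest 1761 to 1829 CPM, so that these differed by more than counting error. The pools averaged 1780 ± 106 CPM in 0.1X MMR against 1838 ± 67.9 CPM in 0.75X MMR (SD, n = 3 each), a 1.03-fold difference that was smaller than the spread between pools. The sample with the lowest sum was also the one with the most counts in total. Of the 178 members, 52, or 29.2%, had their lowest CPM in it, where 17.4% of all genes of the log2 CPM table with counts in every sample did. Oocyte names summed to 1063 to 1187 CPM in 0.1X MMR and 1161 to 1235 CPM in 0.75X MMR, and gastrula names to 596 to 667 CPM and 631 to 681 CPM.

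The sums of that sample were also low within most clusters. On 6L the sums were 404, 474 and 446 CPM in 0.1X MMR and 450, 430 and 456 CPM in 0.75X MMR. On 9_10L they were 339, 374 and 390 CPM against 372, 393 and 401 CPM, and on 9_10S 409, 469 and 458 CPM against 453, 464 and 489 CPM. In these 3 clusters the first sample of 0.1X MMR was the lowest of all, as it was in the 29 members outside the large clusters, with 211 CPM against 217.5 to 241 CPM in the other pools. On 6S the sums were 295, 312 and 312 CPM against 291, 299 and 331 CPM, with the lowest value in the first sample of 0.75X MMR and the next lowest in the first of 0.1X MMR. In none of the 4 clusters were the media apart.

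**Figure D4:**
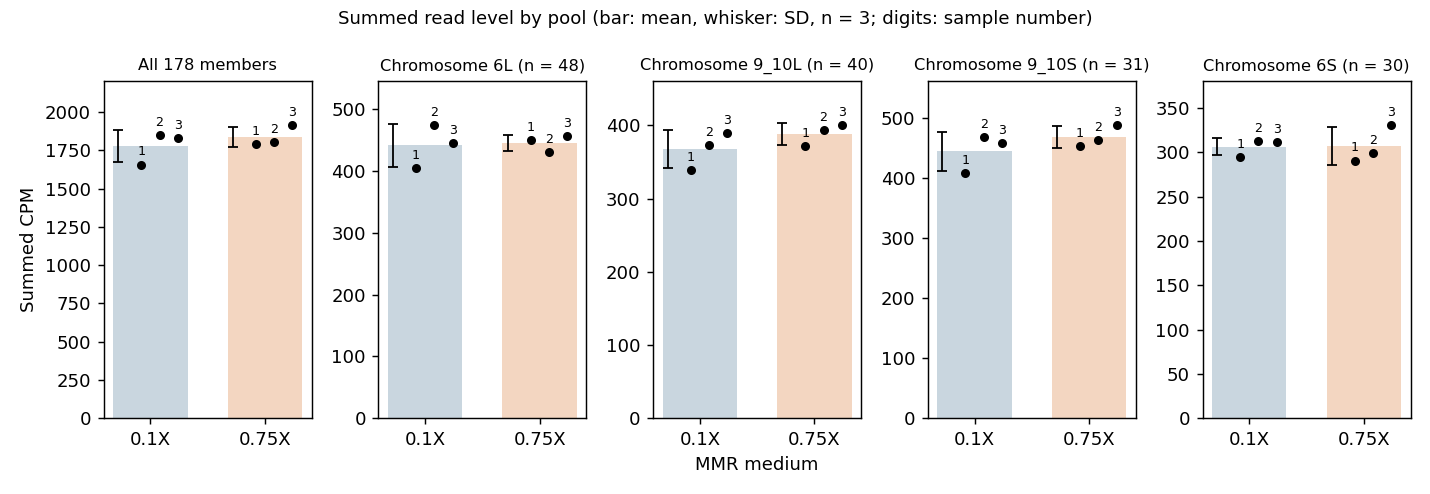
Summed CPM of all members and of the members of the 4 large clusters in each pool, with the sample number at each point, the mean as a bar from 0 and the SD (n = 3) as a whisker. The first sample of 0.1X MMR is the lowest in 4 of the 5 panels, and the media overlap in each panel.

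The media were compared to ask whether the salt level of the rearing medium alone alters expression. No member was called different between them by edgeR's quasi-likelihood test. All 178 members passed the filter of a CPM over 0.6 in at least 3 samples. At an FDR under 0.05 with Benjamini-Hochberg adjustment over 28075 tested genes, 0 members were called, by edgeR, DESeq2 or limma-voom, and over all tested genes edgeR called 0.0178%. The smallest adjusted p of a member by edgeR was 1.00 when rounded. At an unadjusted p under 0.05 there were 5 members, or 2.81%, where 4.39% of all tested genes had such a p. DESeq2 gave 0 members and 1.49% of all tested genes at this limit. All 5 were higher in 0.75X MMR, where 2.14% of all tested genes had such a p on the higher and 2.25% on the lower side.

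Log2 fold changes (0.75X over 0.1X MMR, by edgeR) lay between -0.56 and 0.88, with a median of 0.05 over the members and -0.0014 over all tested genes. Above 0 were 105 members, or 59.0%, against 49.6% of all tested genes. Without the first sample of 0.1X MMR, the one with the low sum, the median was -0.01 and 87 members, or 48.9%, were above 0. Without the third sample of 0.75X MMR, the one with the highest sum, the median was 0.02 and 52.2% were above 0. The slight lean to higher values was not seen without the first of these samples and was smaller without the other. Both had been picked for their sums, and leaving out such a pool lowers the fold changes by itself. With any other sample left out, the median was 0.04 to 0.08, and 59.6% to 69.1% of members were above 0. The other 302 zinc finger genes had a median of 0.02. By name, the median was 0.05 over oocyte and 0.06 over gastrula genes.

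In 15 members, or 8.43%, the pools of the media did not overlap in CPM scaled with TMM factors, 11 of them higher and 4 lower in 0.75X MMR, while 9.74% of all tested genes did not overlap. The background was 4.77% for higher and 4.97% for lower values. In CPM of plain totals, as printed for single genes, 12 members did not overlap, and the share over all tested genes was not taken for these values. In the deposited log2 CPM, from which the authors had removed surrogate variables, 46 members, or 25.8%, did not overlap, where the share over that table was 27.0%. Of these, 34, or 19.1%, were higher and 12, or 6.74%, lower, where 12.7% and 14.3% of the table were. The share without overlap was higher after the adjustment among the members and among all genes alike.

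**Figure D5:**
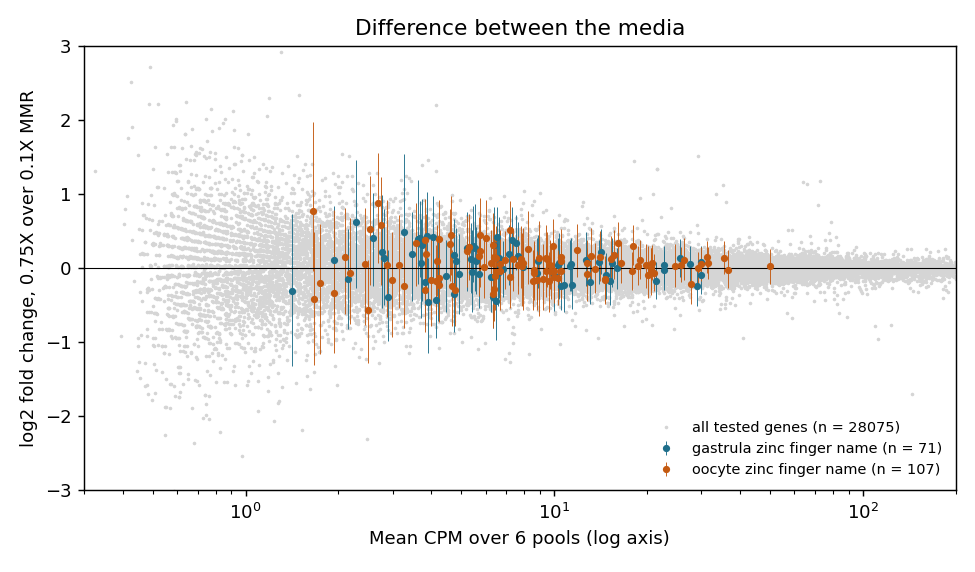
Log2 fold change between the media by edgeR against mean CPM (log axis) for all tested genes (grey, with 711 beyond the axes) and the members (colour), with 95% confidence intervals from limma-voom. The members lie between -0.56 and 0.88, inside the cloud of genes with like read levels.

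The 5 members with an unadjusted p under 0.05 were low or moderate in level. LOC108704311 on 9_10S (114657766 to 114825252), named after XlCOF22, had 5.35, 6.02 and 6.43 CPM in 0.1X MMR and 7.90, 9.69 and 7.90 CPM in 0.75X MMR. Its log2 fold change was 0.51 (standard error 0.19, unadjusted p = 0.0164, adjusted p = 1.00 by edgeR). Its span overlaps 5 other members and none of its values was whole, so that its reads may in part be those of its neighbours, which was not tested. LOC108703747 on 9_10L, also named after XlCOF22, had 12.8, 16.2 and 13.5 CPM in 0.1X MMR and 17.9, 17.9 and 18.2 CPM in 0.75X MMR, and the log2 fold change was 0.34 (standard error 0.13).

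LOC108716075 on 5L, named after XlCOF29, had the highest log2 fold change of all members at 0.88 (standard error 0.35) and few counts, with 10.9, 13.4 and 9.73 in 0.1X MMR against 30.3, 13.7 and 18.4 in 0.75X MMR. One pool of 0.75X MMR, its first, stood well above the others, and without it the log2 fold change was 0.53 (unadjusted p = 0.178 by edgeR). LOC108704246 on 9_10S, named after XlCOF7.1, had 14.2, 15.99 and 18.1 CPM in 0.1X MMR and 21.0, 19.5 and 19.3 CPM in 0.75X MMR, and the log2 fold change was 0.30 (standard error 0.13). LOC108719558 on 6L, named after XlCGF7.1, had 5.17, 5.98 and 5.49 CPM in 0.1X MMR and 6.46, 8.26 and 7.80 CPM in 0.75X MMR, and the log2 fold change was 0.42 (standard error 0.19). The media did not overlap in any of these 5 genes, which is no separate evidence, since they were picked for their p. The next smallest p was that of LOC108695502 on 6S, named after XlCGF58.1, with 27.7, 32.3 and 34.0 CPM in 0.1X MMR and 22.8, 28.3 and 29.01 CPM in 0.75X MMR, with a log2 fold change of -0.24, or -0.14 without the first sample of 0.75X MMR, and media that overlap.

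The size of change that remained possible can be read from the intervals. By limma-voom, the 95% interval around the log2 fold change lay within plus or minus 1 for 163 members, or 91.6%, against 80.6% of all tested genes and 91.1% of the genes of the log2 CPM table, to which all members belong. The other 15 members had mean counts of 8.45 to 23.5, and their intervals included a 2-fold change. Within plus or minus 0.5 lay the intervals of 64 members, or 36.0%, against 51.4% of all tested genes and 58.5% of that table. The intervals of most members thus reached beyond plus or minus 0.5. They are not adjusted for the number of genes tested, and do not give the share of changes that the test would call. For the sum over the family the pools of both media spanned 1658 to 1917 CPM.

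At an FDR under 0.05 in either direction, edgeR called 0 of 26 tested maternal and oocyte genes and 0 of 41 gastrula genes. It also called 0 of 56 genes of the cofactor list and 0 of 87 regulators with zinc fingers. At an unadjusted p under 0.05 there were 2, 2, 4 and 5 of them, or 7.69%, 4.88%, 7.14% and 5.75%. Over all tested genes the share was 4.39%. The median log2 fold changes of these lists, in the same order, were 0.05, -0.06, 0.01 and 0.0024. Germ line markers, which could carry oocyte-type transcripts, summed to 22.1 to 30.1 CPM in the 6 genes of their list. All 6 are also on the list of maternal and oocyte genes. Of the 5 tested by edgeR, 0 were called. The 1 with an unadjusted p under 0.05 was higher in 0.75X MMR and was already counted among the maternal and oocyte genes.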

How the data were processed

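Expected counts per gene were estimated by the authors with RSEM after trimming with fastp and alignment with STAR in 2 passes to version 10.1 of the genome, and deposited without normalization. The second deposited file holds log2 CPM from limma, made by the authors with a filter on low values, TMM and voom, with surrogate variables then removed. Here it gave the product names, the list of genes and 1 alternative. Every column was matched to a sample, with 0 left over.

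Counts were rounded for the tests and kept as deposited for CPM. The test was run on genes that exceeded 0.6 CPM in 3 or more samples, with edgeR 4.0.16 (quasi-likelihood test, TMM, medium as the only term, FDR limit 0.05). TMM factors were between 0.990 and 1.02. Standard errors given for edgeR were derived as the absolute log2 fold change divided by the square root of the test's F statistic. Alternatives were DESeq2 1.42.0, limma 3.58.1 with and without 2 surrogate variables from sva 3.50.0, RLE factors, other filters, a replicate block and leaving out each sample. R 4.3.3 and Python 3.11.15 were used, and the tests were checked on simulated counts. RefSeq names no transcript length in the table used, so levels were not divided by length.

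Members and lists were chosen with earlier results of these data known. The genes named were those past the FDR limit, the 8 highest and 4 lowest by mean CPM, the 6 smallest p, the 6 widest and 3 narrowest coefficients of variation at a mean count of 50 or more, members with a symbol other than a LOC number, and the top gene of a list. The clusters were defined after positions had been seen.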

Additional observations from a re-analysis of the deposited data

How the results depend on the processing

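The count of 0 members past the FDR limit was the same in all 13 alternative fits. The log2 fold changes of the 6 members with the smallest p kept their direction in all fits. That is no separate evidence, since these members were picked for their p. Without the first sample of 0.75X MMR, the log2 fold change of LOC108716075 went from 0.88 to 0.53 and that of LOC108695502 from -0.24 to -0.14. Without the first sample of 0.1X MMR, the 5 members under 0.05 in the main fit had unadjusted p of 0.0590 to 0.140 by edgeR. The 6 members under 0.05 in that fit, where 4.31% of all tested genes had such a p, were thus others. At an unadjusted p under 0.05 there were 5 members, 0 with DESeq2, and 3 to 9 with 1 sample left out. The lowest count came without the second and the highest without the third sample of 0.75X MMR. Over all tested genes the shares were 1.49% with DESeq2, and 4.78% and 4.35% in these 2 fits. The labels do not pair samples by their number, and the deviations of same-numbered samples correlated at -0.02, -0.03 and -0.10. With 3 pools per medium, these values cannot tell whether same-numbered pools share a clutch. With the replicate block 4 members had such a p, where 3.55% of all tested genes did, and 0 were called. The median log2 fold change was -0.01 to 0.08 with 1 sample left out and below 0 only without the first sample of 0.1X MMR. Members whose media do not overlap numbered 15, 12 with plain totals, and 46 in the authors' adjusted values, an alternative chosen after seeing the data. The shares were 9.74% of all tested genes for the first and 27% of the log2 CPM table for the last. None was taken for plain totals. The median spread between pools was 15.4%, and 13.7% as the SD of log2(CPM + 1) times the natural log of 2, 11.9% over members with a mean count of 50 or more, 13.5% in 0.1X MMR alone and 14.1% in 0.75X MMR alone. The alternative of coding length was not run. The 15 members whose limma-voom interval reached beyond plus or minus 1 had mean counts of 8.45 to 23.5. They were a part of the 41 members with a mean count of 5 to 25.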
